A study of Mus musculus with 15 samples.

Results

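Of the 54232 genes in a table of read counts from the developing mouse palate, 8 genes of the Schwann cell lineage and of peripheral myelin are described here: Sox10, Foxd3, Erbb3, Egr2, Pmp22, Mbp, Prx and Mag. They were taken by name, all 8 were found in the table, and all 8 passed the filter on low counts that left 22151 genes for testing. Secondary palates were dissected from wild-type (WT) mice before birth, at E13.5, E14.5, E15.5 and E16.5 (days of embryonic life), and at birth (P0). Every stage had 3 libraries, each made from the pooled tissue of 3 embryos, so replicate error here is the variation from pool to pool. All 5 groups share the wild-type genotype and differ in the labels by stage only. Whether libraries of different stages came from related litters is not given in the sources used here. Levels are given as CPM (counts per 1e+06 counts of the library, adjusted for composition by the trimmed mean of M values). Where one gene is set against another, they are given as TPM, which also divides by gene length.

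Schwann cells are the glia of peripheral nerves and arise from the neural crest. Crest cells that follow growing nerves become Schwann cell precursors, which depend on neuregulin presented by axons and sensed through the receptor pair of Erbb3 and Erbb2, and then immature Schwann cells, some of which wrap single axons in myelin. Sox10 is needed throughout the lineage, Foxd3 marks its early steps, Egr2 (also known as Krox20) switches on the myelin genes, and Pmp22, Mbp, Prx and Mag encode proteins of the finished sheath. The hard and soft palate are supplied by branches of the trigeminal nerve, which enter it as the shelves grow.

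Several members are also expressed outside Schwann cells. Erbb3 is present in epithelia, Pmp22 in fibroblasts, endothelium and epithelia, and Egr2 is an immediate early gene that many cells switch on when stimulated or dissected. Mbp also serves oligodendrocytes, the myelinating glia of the brain, and its locus makes the longer Golli transcripts in neurons and immune cells. Counts per gene cannot separate Golli from classic Mbp transcripts. In bulk tissue, a change in the number of cells of a type and a change in the RNA per cell cannot be told apart, and this holds for every gene below.

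Promoter windows were available from RefSeq (GRCm38.p6; 250 bases before to 50 bases from an annotated start) for 5 of the 8 genes, in 14 windows: 1 for Foxd3, 1 for Prx, 3 for Mag, 5 for Egr2 and 4 for Pmp22. They are shown for Egr2, the myelin switch, and for Mag and Prx, sheath genes that it is known to act on. Each is printed 5′ to 3′ on the strand of its gene, with motif matches in capitals.
Egr2 chr10:67537620-67537919 plus strand: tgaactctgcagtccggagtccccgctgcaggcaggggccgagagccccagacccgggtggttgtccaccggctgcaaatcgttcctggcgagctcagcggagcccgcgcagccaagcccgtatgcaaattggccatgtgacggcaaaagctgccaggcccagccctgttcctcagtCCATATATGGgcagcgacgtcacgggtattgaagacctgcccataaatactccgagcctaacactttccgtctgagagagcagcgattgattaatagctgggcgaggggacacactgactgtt
Mag chr7:30914814-30915113 minus strand: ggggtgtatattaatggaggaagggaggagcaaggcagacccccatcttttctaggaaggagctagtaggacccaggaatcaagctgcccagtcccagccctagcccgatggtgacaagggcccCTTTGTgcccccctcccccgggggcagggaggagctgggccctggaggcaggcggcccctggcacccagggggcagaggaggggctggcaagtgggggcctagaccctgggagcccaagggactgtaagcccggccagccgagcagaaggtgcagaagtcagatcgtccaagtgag
Prx chr7:27499074-27499373 plus strand: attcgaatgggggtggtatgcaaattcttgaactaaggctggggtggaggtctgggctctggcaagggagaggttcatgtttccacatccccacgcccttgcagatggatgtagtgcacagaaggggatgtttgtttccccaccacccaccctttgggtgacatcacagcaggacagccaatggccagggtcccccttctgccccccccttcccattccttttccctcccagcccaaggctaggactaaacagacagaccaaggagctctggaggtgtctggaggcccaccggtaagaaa
Both strands were searched for 3 motifs. The CArG box, the site read by serum response factor in many immediate early genes, was found in 4 of the 5 Egr2 windows and in no window of the other 4 genes, against 1.63% of all 32851 windows of this length. The Egr2 windows whose first bases are 67537619, 67537620 and 67537680 overlap each other and share the same match. In the Egr2 window shown this match begins 73 bases before the start. The SOX motif (ACAAAG or ACAATG) was found in 2 of the 3 Mag windows, which overlap each other and share that match, against 28.6% of all windows, and in the window shown it begins 126 bases before the start. The EGR motif (GCGNGGGCG) was found in 0 of the 14 windows, against 5.55% of all windows. These matches describe letters in a window, and counts per gene do not show which start was used.

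The genes lie at 8 separate places in the mouse genome (GRCm38; the positions in the table matched GENCODE M21 for all 8). Sox10 (ENSMUSG00000033006.10) is at chr15:79154908-79165240 on the minus strand, Foxd3 (ENSMUSG00000067261.4) at chr4:99656299-99658622 on the plus strand, and Erbb3 (ENSMUSG00000018166.8) at chr10:128567523-128589652 on the minus strand. Egr2 (ENSMUSG00000037868.15) is at chr10:67535475-67542188, Pmp22 (ENSMUSG00000018217.12) at chr11:63128982-63159547, Mbp (ENSMUSG00000041607.16) at chr18:82475146-82585637 and Prx (ENSMUSG00000053198.13) at chr7:27499324-27520214, all on the plus strand. Mag (ENSMUSG00000036634.15) is at chr7:30899176-30914873 on the minus strand. Foxd3 and Erbb3 each overlap 1 annotated microRNA on the same strand, while Mbp and Prx each overlap 1 gene on the other strand, which the stranded counting kept apart.

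From E13.5 to P0, 6 of the 8 genes rose and none fell, while the lineage factor Sox10 and the neuregulin receptor Erbb3 did not pass the test in either direction. The largest rises were those of Egr2 (7.21-fold) and Mag (7.01-fold), followed by Mbp (4.49-fold), Pmp22 (3.81-fold), Prx (3.17-fold) and Foxd3 (2.51-fold). Among all 22151 genes, 29.8% rose and 26.8% fell in the same comparison, at an adjusted p under 0.05 in edgeR's quasi-likelihood test. In all 6 genes every P0 library stood above every E13.5 library, as it did in 30.2% of all genes. The median log2 fold change of the 8 genes was 1.80, beside 0.03 over all genes tested. With the 5 stages tested together, the same 6 genes passed, against 59.1% of all genes. The plot of CPM by library shows the genes side by side.

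**Figure D1:**
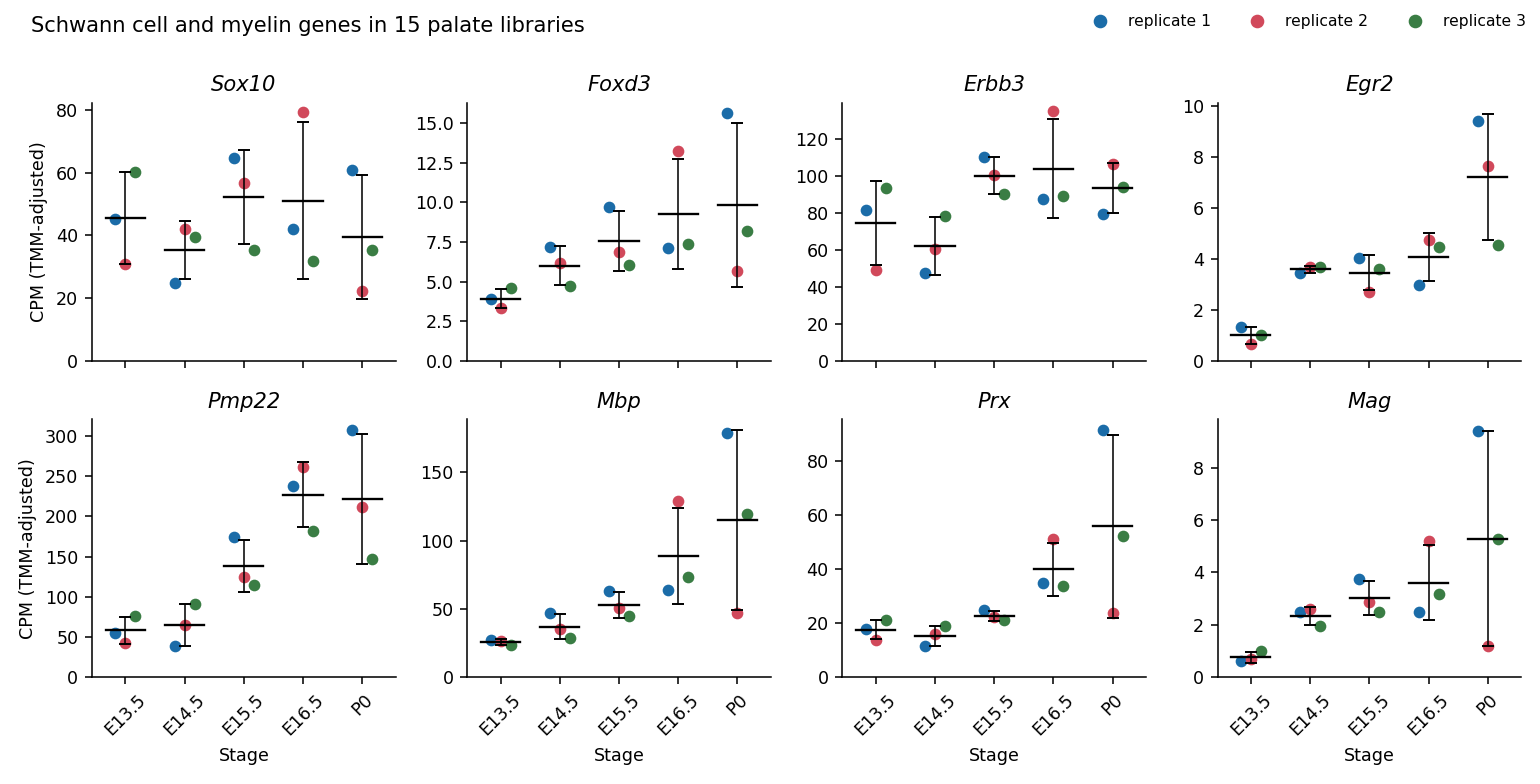
CPM (vertical axes, each starting at 0) of the 8 genes at 5 stages, with 1 point per library coloured by replicate number, a line at the mean and bars of 1 SD (n = 3 per stage). Sox10 and Erbb3 overlap between E13.5 and P0, the other 6 genes do not, and the P0 libraries are widely spread for Mbp, Prx and Mag.

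Sox10, the transcription factor that marks neural crest glia from precursor to adult, was present in every library and did not pass the test in either direction. It stood at 45.1, 30.9 and 60.2 CPM in replicates 1, 2 and 3 at E13.5, at 24.8, 41.9 and 39.5 CPM at E14.5, and at 64.6, 56.7 and 35.5 CPM at E15.5. At E16.5 it stood at 42.0, 79.3 and 31.7 CPM, and at P0 at 60.9, 22.3 and 35.3 CPM. Every stage overlapped every other, and the largest gap between libraries of a stage, at P0, was 2.74-fold. P0 against E13.5 gave a log2 fold change of -0.20 (SE 0.42, adjusted p = 0.698), and the test over the 5 stages gave an adjusted p of 0.66 (edgeR). Leaving out the library of each stage that was richest in axon genes gave -0.88 for P0 against E13.5 (edgeR adjusted p = 0.0506).

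Foxd3, a forkhead factor of the premigratory crest and of Schwann cell precursors, was low and rose. Its levels were 3.88, 3.34 and 4.58 CPM at E13.5 (replicates 1, 2 and 3), 7.17, 6.16 and 4.71 CPM at E14.5, and 9.73, 6.90 and 6.07 CPM at E15.5. At E16.5 they were 7.12, 13.2 and 7.39 CPM, and at P0 15.7, 5.70 and 8.23 CPM. All libraries from E14.5 on exceeded all 3 of E13.5, and the later stages overlapped one another. The rise from E13.5 to P0 was 1.33 on the log2 scale (SE 0.37, edgeR adjusted p = 0.0082). The all-stage test was close to the threshold (adjusted p = 0.0414) and did not pass in 8 of 15 fits, each made without 1 of the libraries. Without the library of each stage that was richest in axon genes, the P0 rise was 0.71 with an adjusted p of 0.0609.

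Erbb3, the receptor through which axonal neuregulin reaches Schwann cells, was among the more abundant members. It stood at 81.3, 49.0 and 93.3 CPM at E13.5 (replicates 1, 2 and 3), at 47.4, 60.4 and 78.5 CPM at E14.5, and at 110, 100 and 90.2 CPM at E15.5. The levels were 87.5, 135 and 89.3 CPM at E16.5, and 79.4, 107 and 93.7 CPM at P0. All 3 libraries of E15.5 exceeded all 3 of E14.5, a log2 fold change of 0.69 (SE 0.25) whose edgeR adjusted p of 0.06 missed the threshold and was 0.0318 in DESeq2. P0 and E13.5 overlapped, with a log2 fold change of 0.32 (SE 0.25, edgeR adjusted p = 0.287). Some genes of the epithelium, which also expresses Erbb3, gained RNA over the same span. The summed CPM of 10 epithelial genes ranged from 296 to 657 at E13.5 and from 1040 to 2810 at P0. The keratin gene Krt5 had the largest part in this sum, with means of 94.0 CPM at E13.5 and 806 CPM at P0. Epcam went from a mean of 67.1 to 121 CPM and Esrp1 from 39.0 to 58.7 CPM. Of the 10 genes 6 rose, against 29.8% of all genes. The part of the epithelium in the Erbb3 level was not tested.

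Egr2, the zinc finger factor that turns on the myelin programme, had the lowest adjusted p of the group. It stood at 1.33, 0.662 and 0.995 CPM at E13.5 (replicates 1, 2 and 3, from 93, 47 and 67 counts) and at 3.43, 3.66 and 3.67 CPM at E14.5. Levels were 4.05, 2.71 and 3.60 CPM at E15.5, 2.98, 4.73 and 4.45 CPM at E16.5, and 9.40, 7.62 and 4.53 CPM at P0. The first step came between E13.5 and E14.5, with no overlap and libraries of E14.5 within 1.07-fold of each other, and the middle stages overlapped. E14.5 against E13.5 gave a log2 fold change of 1.84 (SE 0.32), which missed the threshold in edgeR (adjusted p = 0.0653) and passed it in DESeq2 (adjusted p = 7.69e-06). From E13.5 to P0 the log2 fold change was 2.85 (SE 0.33, edgeR adjusted p = 2.73e-05).

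Other immediate early genes moved in the same span as Egr2. All 10 genes of that list rose from E13.5 to P0, against 29.8% of all genes. Among them were Fosb (log2 fold change 5.47, SE 0.53), Atf3 (5.02, SE 0.29) and Fos (4.90, SE 0.41). The summed CPM of the list went from 155 to 179 at E13.5 to 478 to 842 at P0. At P0 Fos was highest in replicate 2 (99.4 CPM, beside 39.4 CPM in replicate 1), whereas Egr2 was highest in replicate 1. The summed CPM of the list at P0 was 478, 842 and 549 in replicates 1, 2 and 3. In replicate 2 only Egr2 (by 0.15) and Erbb3 (by 0.20) of the 8 genes lay above their stage mean of log2 CPM. Jun, the most abundant of the list, rose by 1.02 on the log2 scale (SE 0.13). The part of this response in the Egr2 level was not tested.

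Pmp22, a small membrane protein of compact peripheral myelin, had the highest level per length of the 8 genes at every stage. It stood at 55.3, 42.8 and 76.5 CPM at E13.5 (replicates 1, 2 and 3), at 38.3, 65.0 and 91.5 CPM at E14.5, and at 175, 124 and 115 CPM at E15.5. At E16.5 it stood at 238, 262 and 182 CPM, and at P0 at 308, 211 and 147 CPM. The first pair of stages overlapped, all E15.5 libraries exceeded all of E14.5, all E16.5 libraries exceeded all of E15.5, and P0 overlapped E16.5. From E14.5 to E15.5 it rose by 1.08 on the log2 scale (SE 0.34, edgeR adjusted p = 0.0336), and from E13.5 to P0 by 1.93 (SE 0.35, adjusted p = 0.000536). The call between E14.5 and E15.5 was lost when E14.5 replicate 1 or 2 or any of the 3 E15.5 libraries was left out, with log2 fold changes from 0.81 to 1.41 over all 15 such fits and an adjusted p of up to 0.14. With only the 6 libraries of the contrast it was also lost (adjusted p = 0.0596), and Erbb3 passed there (adjusted p = 0.0497).

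Pmp22 is expressed by vessels as well, and endothelial genes also rose. From E13.5 to P0, 5 of 8 endothelial genes rose and none fell, against 29.8% and 26.8% of all genes. Pecam1 was up by 1.24 on the log2 scale (SE 0.25). The summed CPM of the 8 endothelial genes went from 344 to 456 at E13.5 to 516 to 759 at P0. The gene closest to Pmp22 in its pattern over the 15 libraries was Mcam, an adhesion molecule of vessels and pericytes, with a Pearson r of 0.99 of log2 CPM. The part of the vessels in the Pmp22 level was not tested.

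Mbp, myelin basic protein, which holds the cytoplasmic faces of the sheath together, rose over the whole span. Its levels were 27.0, 26.5 and 23.5 CPM at E13.5 (replicates 1, 2 and 3), 47.0, 35.2 and 28.8 CPM at E14.5, and 62.9, 50.6 and 44.5 CPM at E15.5. At E16.5 they were 64.1, 129 and 73.4 CPM, and at P0 179, 47.1 and 120 CPM. Each library from E14.5 on exceeded all of E13.5, E16.5 exceeded E15.5 in all libraries, and P0 replicate 2 lay within the range of E15.5. The rise from E13.5 to P0 was 2.17 on the log2 scale (SE 0.40, edgeR adjusted p = 0.000683), and no single step between neighbouring stages passed the test.

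Prx encodes periaxin, a scaffold of the mature peripheral sheath that is not part of myelin in the brain. It stood at 17.8, 13.9 and 21.1 CPM at E13.5 (replicates 1, 2 and 3), at 11.4, 15.9 and 18.8 CPM at E14.5, and at 24.8, 22.3 and 21.3 CPM at E15.5. At E16.5 it stood at 34.8, 51.3 and 33.8 CPM, and at P0 at 91.6, 23.8 and 52.2 CPM. The first pair of stages overlapped, and each of the next pair of steps, to E15.5 and to E16.5, left no overlap. P0 exceeded E13.5 by 1.67 on the log2 scale (SE 0.38, edgeR adjusted p = 0.00259). The step from E15.5 to E16.5 gave 0.81 (SE 0.37), with an unadjusted p of 0.0488 and an adjusted p of 0.227.

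Mag, an adhesion protein of the membrane that faces the axon, was the least abundant member. It stood at 0.602, 0.676 and 0.981 CPM at E13.5 (replicates 1, 2 and 3, from 42, 48 and 66 counts) and at 2.48, 2.60 and 1.94 CPM at E14.5. Levels were 3.74, 2.86 and 2.47 CPM at E15.5, 2.48, 5.20 and 3.16 CPM at E16.5, and 9.40, 1.19 and 5.27 CPM at P0. All later libraries exceeded E13.5, while P0 replicate 2, with 39 counts, lay below every library of E14.5 to E16.5. The P0 libraries spanned 7.91-fold, the widest gap within a stage among the 8 genes. Its rise from E13.5 to P0 was 2.81 on the log2 scale (SE 0.57, edgeR adjusted p = 0.0012).

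Few steps between neighbouring stages passed the test. From E13.5 to E14.5, 0 of 8 genes passed in edgeR, against 0.00903% of all genes, with 2 at an unadjusted p under 0.05 (Egr2 and Mag), against 3538 of the 22151 genes (16%). In DESeq2, which called 5.13% of all genes, 1 passed (Egr2). Mag gave a log2 fold change of 1.63 there (SE 0.55, edgeR adjusted p = 0.204). Foxd3, Mbp, Egr2 and Mag, 4 of 8, were higher in every E14.5 library, as were 15.5% of all genes.

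The step from E14.5 to E15.5 had the only neighbouring call, Pmp22, so 1 of 8 rose and 0 fell, against 12.7% and 13.4% of all genes. Erbb3, Pmp22 and Prx, 3 of 8, were higher in every library, against 24.0%. From E15.5 to E16.5, 0 of 8 passed in edgeR and in DESeq2, against 1.41% of all genes in edgeR and 10.3% in DESeq2, with Prx at an unadjusted p under 0.05 in edgeR, as were 21.8% of all genes. Mbp, Pmp22 and Prx, 3 of 8, were higher in every E16.5 library, against 15.7%. From E16.5 to P0, 0 of 8 passed in both tools, against 0.352% in edgeR and 3.19% in DESeq2. Egr2 was at an unadjusted p under 0.05 in edgeR (log2 fold change 0.83, SE 0.31, adjusted p = 0.314), as were 11.7% of all genes. In 0 of 8 genes was every P0 library above every E16.5 library, against 6.23%, while the immediate early list had 6 of its 10 genes higher by the test in that step, against 0.190% of all genes.

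**Figure D2:**
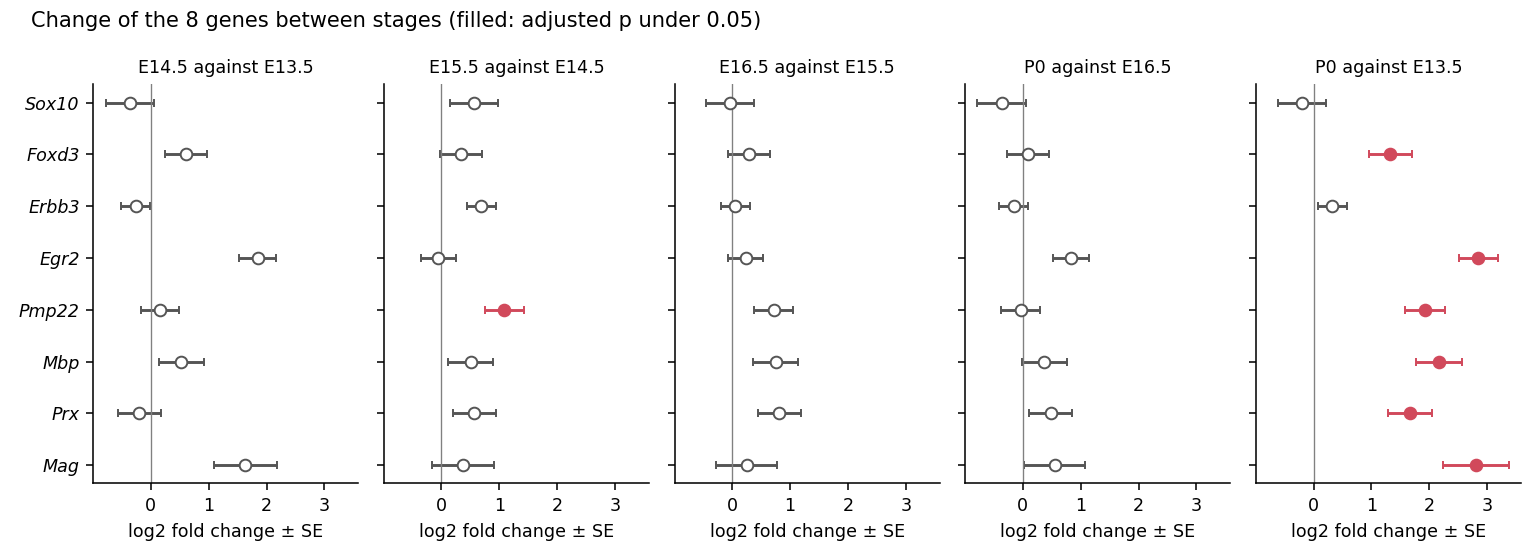
Log2 fold change with its SE (horizontal axis) of the 8 genes in 4 comparisons of neighbouring stages and in P0 against E13.5, with filled points for an edgeR adjusted p under 0.05. The only filled point between neighbouring stages is Pmp22 at E15.5 against E14.5, and 6 genes are filled in P0 against E13.5.

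Levels per length placed Pmp22 first at every stage, with a mean of 92.4 TPM (SD 24.4, n = 3) at E13.5 and 259 TPM (SD 72.2, n = 3) at P0, and from E14.5 on it overlapped no other member. At E13.5 Sox10 (55.7 TPM, SD 16.6) and Erbb3 (46.4 TPM, SD 13.8) came next and overlapped, and all their libraries exceeded Prx (11.8 TPM, SD 2.24) and Mbp (11.5 TPM, SD 1.31), which overlapped each other. Foxd3 (6.34 TPM, SD 0.869), Egr2 (1.11 TPM, SD 0.408) and Mag (0.689 TPM, SD 0.154) followed, the last pair overlapping. By P0 Mbp (38.6 TPM, SD 21.3) stood between Erbb3 (43.6 TPM, SD 8.30) and Sox10 (36.1 TPM, SD 16.5), with Prx next (28.0 TPM, SD 15.9), and neighbours in that order overlapped. Foxd3 (11.8 TPM, SD 5.58), Egr2 (5.78 TPM, SD 1.45) and Mag (3.65 TPM, SD 2.66) were again the lowest.

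Relative to Sox10 in the same library, a ratio that does not depend on library scaling, the myelin genes were higher at P0. This ratio was chosen after the values had been seen and is given as a description. The TPM ratio of Mbp to Sox10 was 0.223 (SD 0.0847, n = 3) at E13.5 and 1.02 (SD 0.234, n = 3) at P0, a 4.72-fold difference of geometric means. For Pmp22 the ratio was 1.68 (SD 0.104) and 8.08 (SD 3.70), and for Prx 0.218 (SD 0.0268) and 0.738 (SD 0.133). Neither overlapped between these stages, and Prx stayed low until E15.5, at 0.251 (SD 0.0668).

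For Mag the ratio went from 0.0129 (SD 0.00324) to 0.0891 (SD 0.0426), for Egr2 from 0.0202 (SD 0.00591) to 0.187 (SD 0.105), and for Foxd3 from 0.118 (SD 0.0214) to 0.327 (SD 0.0178), again with no overlap. Erbb3 stood at 0.834 (SD 0.0699) and 1.48 (SD 0.891), with overlap. The P0 libraries, which differed 3.79-fold in the CPM of Mbp, lay at 0.769 to 1.23 in its ratio to Sox10. Their spread was also narrower in the ratio than in CPM for Foxd3, Prx and Mag, but wider for Erbb3, Egr2 and Pmp22. The P0 libraries differed 1.34-fold in the CPM of Erbb3 and lay at 0.661 to 2.43 in its ratio. For Egr2 they differed 2.08-fold in CPM and lay at 0.115 to 0.307 in the ratio.

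**Figure D3:**
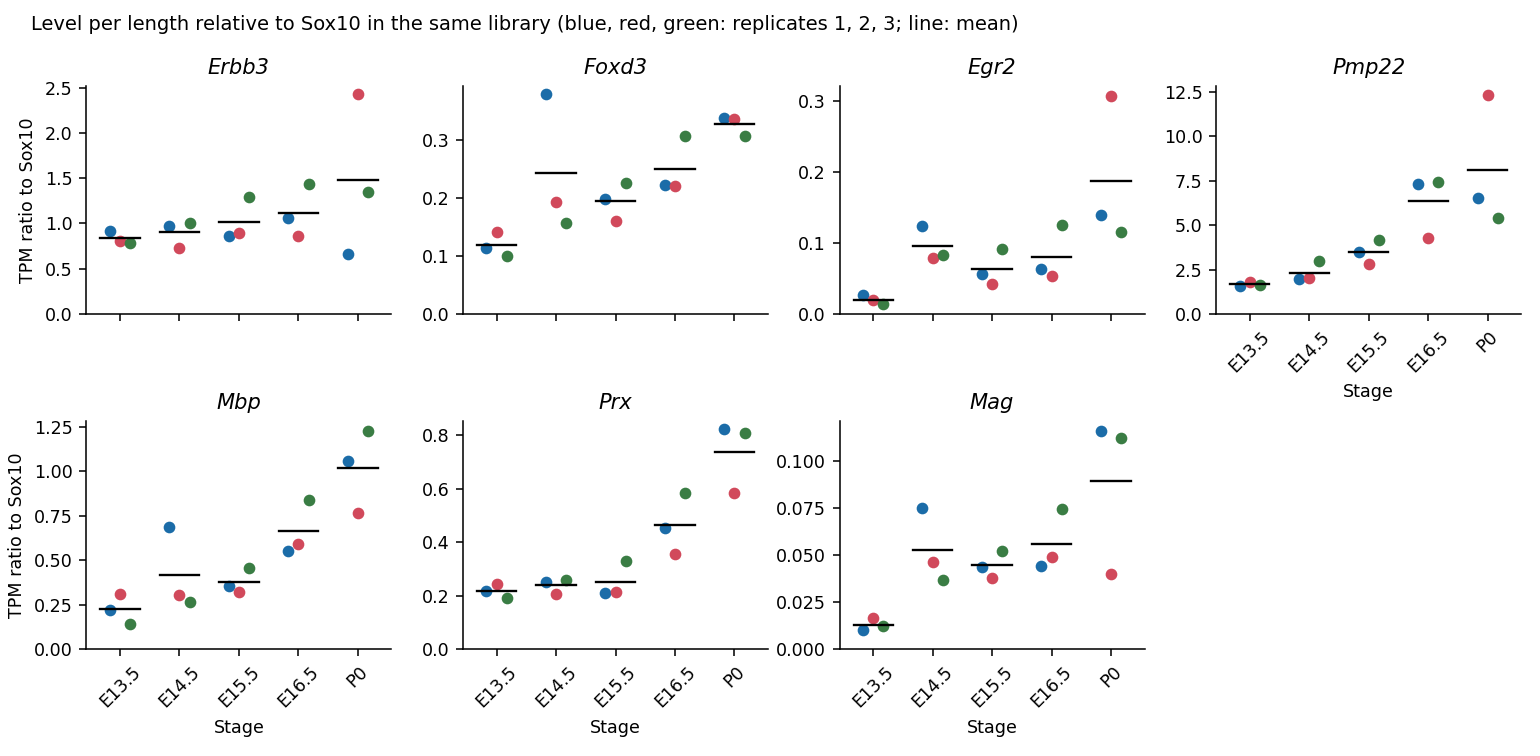
TPM of the other 7 genes divided by the TPM of Sox10 in the same library (vertical axes, each starting at 0) at 5 stages, with 1 point per library and a line at the mean. The Mbp ratio lies at 0.142 to 0.311 at E13.5 and at 0.769 to 1.23 at P0, while the Erbb3 ratio overlaps.

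Within a stage, the members tended to be high or low in the same libraries. In E15.5 replicate 1 and E16.5 replicate 2, 8 of 8 genes were above their stage mean of log2 CPM, and in P0 replicate 1 it was 7 of 8, Erbb3 being below. P0 replicate 2 had 2 of 8 above (Erbb3 and Egr2), with a median deviation of -0.68, against 0.77 in P0 replicate 1. The median gap between the highest and lowest library of a stage over the 8 genes was 1.71-fold at E13.5 and 2.74-fold at P0.

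Axon genes moved with these libraries. E15.5 replicate 1, E16.5 replicate 2 and P0 replicate 1 had the highest summed CPM of the 13 axon and neuron genes at their stage, 4919, 6492 and 6818, with the other libraries of those stages at 1308 to 2640. At E13.5 and E14.5 the richest libraries, replicate 2 (3248) and replicate 1 (5598), had 1 and 3 of the 8 genes above the stage mean. Neurofilament genes deviated most at P0: Nefl was at 1361, 99.6 and 84.8 CPM in replicates 1, 2 and 3. Replicate 3 combined low neurofilament with Mbp, Prx and Mag above the stage mean. Of the 13 genes 2 rose from E13.5 to P0 (Nefh, log2 fold change 4.82, SE 1.15, and Prph, 1.94, SE 0.62), against 29.8% of all genes. The only fall, against 26.8% of all genes, was that of Elavl4, by 1.80 (SE 0.51). The most abundant, Tubb3, gave -0.77 (SE 0.47, edgeR adjusted p = 0.178). With the richest library of each stage left out, which was decided after seeing the data, 5 of the 8 genes still rose from E13.5 to P0, all but Foxd3 of the 6, and 3 (Mbp, Pmp22 and Egr2) passed over the 5 stages. In that fit 41.5% of all genes passed in P0 against E13.5, in either direction, and 40.1% over the 5 stages. In those 10 libraries the Sox10 difference between P0 and E13.5 was -0.88 on the log2 scale (edgeR adjusted p = 0.0506).

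**Figure D4:**
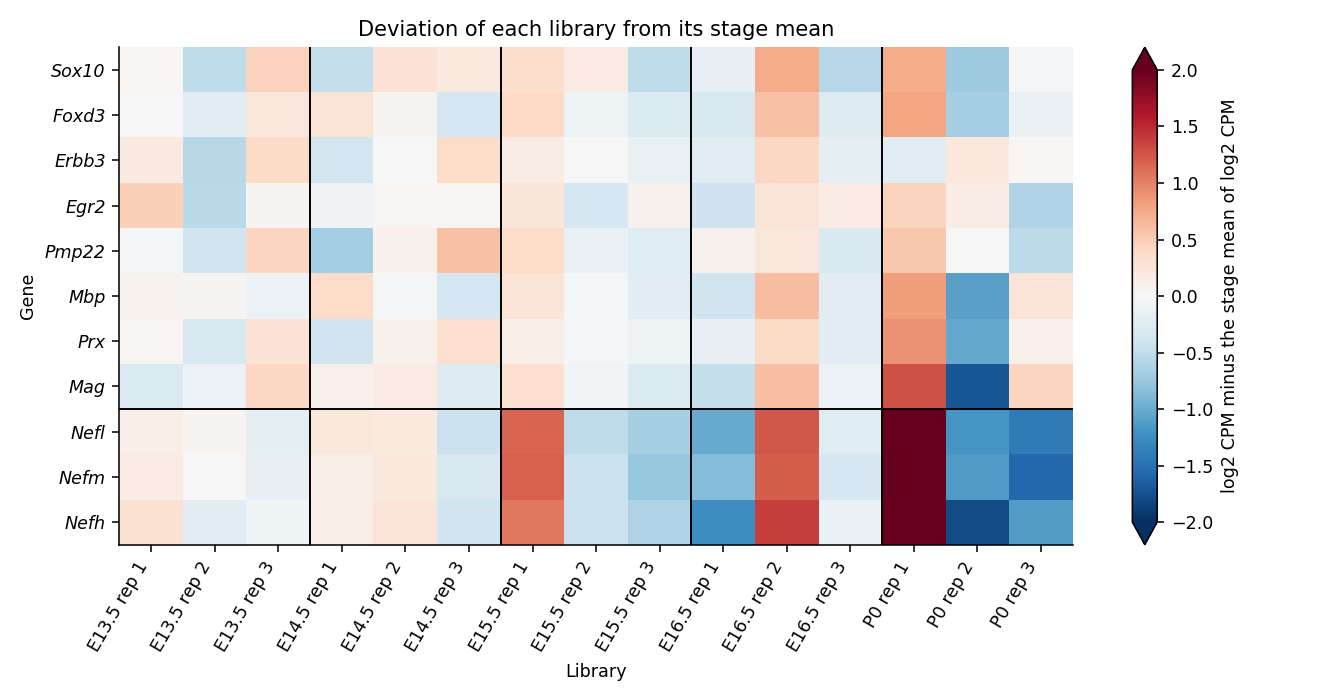
Deviation of log2 CPM from the stage mean (colour, red above and blue below, saturated beyond 2) in the 15 libraries (columns) for the 8 genes and for 3 neurofilament genes (rows). E15.5 replicate 1, E16.5 replicate 2 and P0 replicate 1 are red in nearly all rows, and P0 replicate 2 is blue except for Erbb3 and Egr2, with Pmp22 near 0.

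Further genes of peripheral myelin, a list of 21 without the 8 genes, divided between rises and falls. From E13.5 to P0, 8 rose and 3 fell, against 29.8% and 26.8% of all genes. The list median was 0.80 on the log2 scale. The largest rises were those of Mal (6.16, SE 0.58) and Pllp (3.80, SE 0.71), both proteins of membrane rafts that epithelia also make, and of Cldn19 (4.42, SE 0.86), a claudin of Schwann cell junctions.

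Mal was highest in P0 replicate 2, at 216 CPM beside 88.0 and 49.6 CPM in replicates 1 and 3, and Pllp likewise, at 26.0 beside 12.6 and 11.4 CPM. Cldn19, in contrast, stood at 10.8, 0.732 and 7.53 CPM in replicates 1, 2 and 3, the order of Mag. The genes that fell were Pou3f2, a POU factor that acts before Egr2 (-4.20, SE 1.03), Drp2, the partner of periaxin in the sheath (-1.87, SE 0.32), and Nfasc, an adhesion molecule of the node that neurons also express (-1.30, SE 0.47). The most abundant gene of the list, Cadm4, gave -0.08 (SE 0.41, edgeR adjusted p = 0.881). In the step from E14.5 to E15.5, 2 genes of the list rose and 5 fell, against 12.7% and 13.4% of all genes.

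Among 18 genes of neural crest and early glia, 3 rose and 4 fell from E13.5 to P0, against 29.8% and 26.8% of all genes. The list median was -0.25. Among the rises were those of S100b (2.82, SE 0.63) and Dhh (2.79, SE 0.57), the glial signal that builds the nerve sheath. The largest falls were those of Pax3, a factor of the early crest (-4.31, SE 0.93), Cdh6 (-1.78, SE 0.28) and Itga4 (-0.92, SE 0.26). Ncam1, the most abundant, gave -0.47 (SE 0.26, edgeR adjusted p = 0.142).

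Around Erbb3, the 10 other genes of neuregulin signalling gave 2 rises and 2 falls from E13.5 to P0. Among all genes 29.8% rose and 26.8% fell, and the list median was -0.34. Nrg4, a ligand of Erbb4, rose by 2.75 on the log2 scale (SE 0.94) and Errfi1, an inhibitor of ErbB receptors, by 1.14 (SE 0.17). Erbb4, the related receptor, fell by 2.29 (SE 0.74) and Adam17, a protease that cuts neuregulin, by 0.29 (SE 0.11). Bace1, which also cuts neuregulin and was the most abundant, gave 0.03 (SE 0.17, edgeR adjusted p = 0.903).

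**Figure D5:**
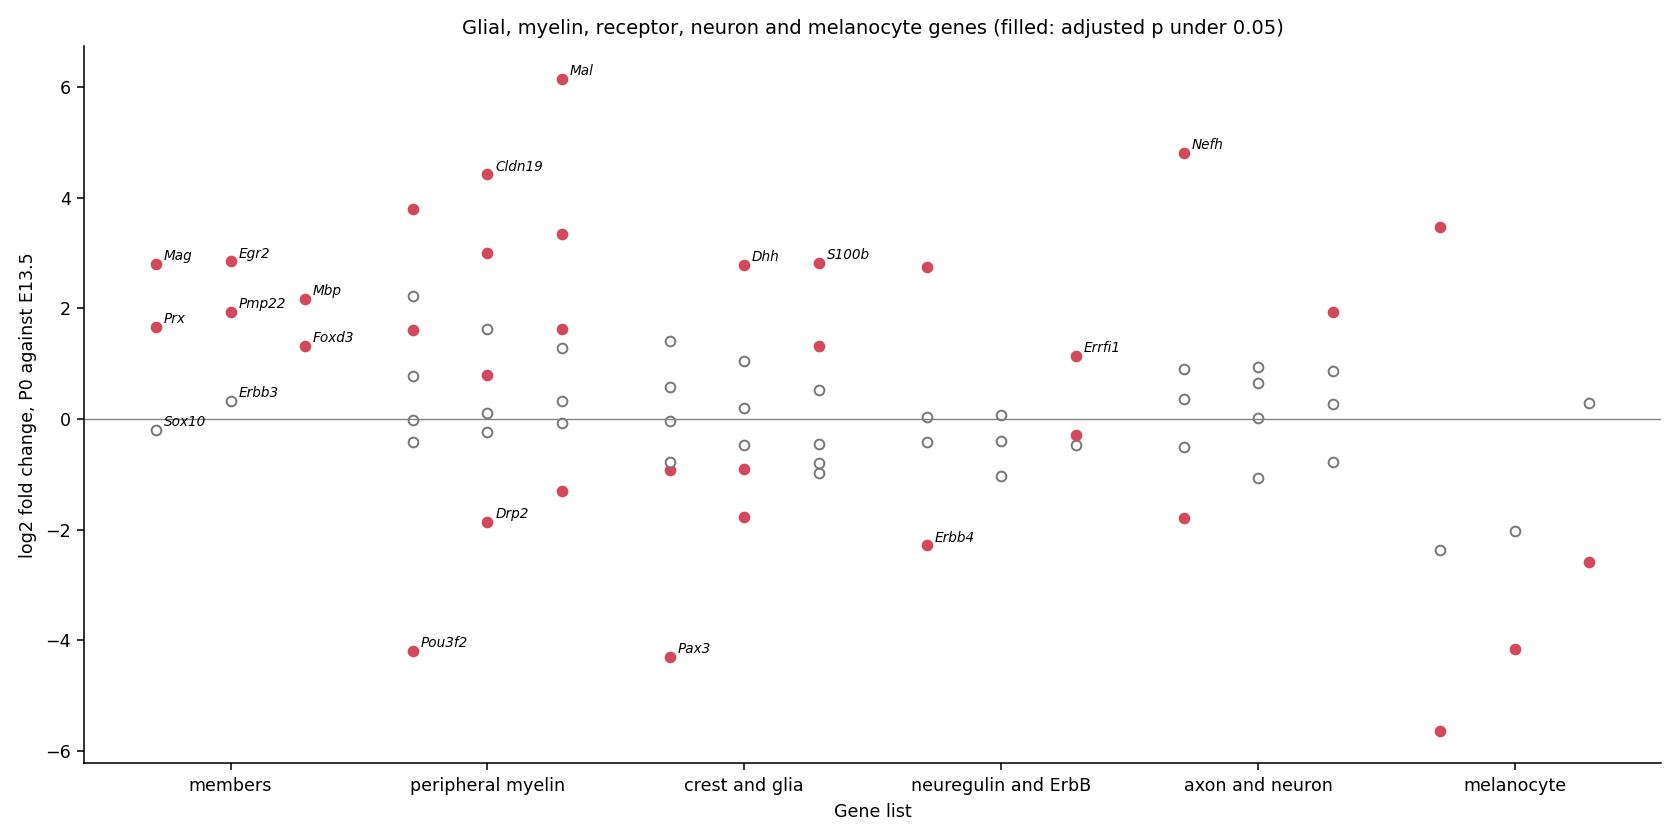
Log2 fold change in P0 against E13.5 (vertical axis) for the 8 genes (members) and for the tested genes of 5 lists (columns), with filled points for an edgeR adjusted p under 0.05 and sideways spread for legibility only. Among the 8 genes 6 points are filled and all 6 lie above 0, while the lists of myelin, crest, neuregulin, axon and melanocyte genes hold filled points on both sides.

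Genes of other cells that the dissection could hold were counted in the same comparison, in which 29.8% of all genes rose and 26.8% fell. Of the oligodendrocyte genes, Mog and Opalin were near 0, with at most 2 and 4 counts in any library, and were not tested, and Mobp had at most 36. Of 9 genes of the central nervous system 7 were tested and 1 fell (Neurod6), Ptprz1 was the most abundant (-0.75, SE 0.47), and the summed CPM was 72.8 to 344 at E13.5 and 62.3 to 118 at P0. Olig2, which marks oligodendrocyte precursors and some olfactory neurons, stood at 0.277, 1.68 and 22.6 CPM in P0 replicates 1, 2 and 3. The olfactory gene Omp stood at 2.33, 10.1 and 118 CPM there. Both were highest in replicate 3, where Mbp was second, and lowest in replicate 1, where Mbp was highest.

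Sox10 also serves melanocytes, and of 7 melanocyte genes Tyrp1 rose and Tyr, Dct and Pmel fell, with a summed CPM of 8.24 to 45.8 at E13.5 and 9.79 to 40.2 at P0. Tyrp1 stood at 33.8, 1.25 and 4.05 CPM in P0 replicates 1, 2 and 3, highest in the library where Sox10 was highest. It made up most of the summed 40.2 CPM of that library. The P0 means of Tyr, Dct and Pmel were 0.0296, 0.324 and 1.84 CPM (n = 3). Sox10 is present in salivary and nasal glands too, and 4 of the 5 tested gland genes rose. Their summed CPM was 1.85 to 2.18 at E13.5 and 903 to 1490 at P0, with Bpifa2 at most 2 counts in any library. Bpifa1 and Muc5b, with P0 means of 857 and 323 CPM, made up most of the P0 sum. The P0 means of Aqp5, Bhlha15 and Lpo were 9.8, 3.01 and 0.848 CPM. Of 7 olfactory neuron genes 5 rose (70.0 to 75.1 CPM at E13.5, 125 to 398 at P0), and of 7 palate mesenchyme genes 5 fell (768 to 1310 and 379 to 498). These list counts stand against 29.8% rises and 26.8% falls among all genes. The part of these cells in the levels of the 8 genes was not tested.

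The genes most like each member over the 15 libraries were found among 16518 genes with a mean of at least 1 CPM, by Pearson r of log2 CPM. The libraries share stage, depth and pool, so r is a description. Mbp was closest to Cnp (r = 0.961) and Gal3st1 (r = 0.955), an enzyme and a sulfatide maker of myelin, and to Cyp2j9 (r = 0.951). Mag was closest to Foxd3 (r = 0.932) and Tmem151a (r = 0.924), and Foxd3 to Hpcal1 (r = 0.964), Tmem151a (r = 0.956) and Zdhhc14 (r = 0.95). Mag and Foxd3 thus shared Tmem151a among their closest genes.

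Prx was closest to Sh3bgrl3 (r = 0.952), Fbxo7 (r = 0.949) and Egfl8 (r = 0.947), and after Mcam the genes closest to Pmp22 were Qprt (r = 0.983) and Hebp1 (r = 0.982). Egr2 was closest to Slc41a2 (r = 0.927), Tekt5 (r = 0.893) and Chp2 (r = 0.89). Sox10 and Erbb3, the members without a call, had the lowest first values of r. Sox10 was closest to Gm10863 (r = 0.91), Xylt2 (r = 0.90) and Prkcd (r = 0.874), and Erbb3 to Pacsin2 (r = 0.904), Vcl (r = 0.90) and Snx9 (r = 0.896).

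The 15 libraries held 21.5 to 69.0 M (1e+06) counts, with 21.5 to 52.3 M at E16.5 and P0 and at least 58.2 M before. The level of 3 counts, taken as the floor of detection, was 0.0421 to 0.131 CPM, below every value of the 8 genes. These floors cover counting error only. The tests measure the spread between pools of a stage, which may in part be technical.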

How the data were processed

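Total RNA of 15 secondary palate samples was sequenced, and the authors deposited 1 table of raw read counts per gene. Per the file headers it was made with featureCounts 2.0.1, counting read pairs on the reverse strand of GENCODE M18. The submitters' processing notes also name cutadapt 3.4, FastQC 0.11.9, Bowtie2, HISAT2 2.2.1, SAMtools 1.12 and the build mm10. Symbols and positions were compared with GENCODE M21, which held 54079 of the genes, 97.68% at an identical position. Groups came from the labels.

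Counts were filtered with filterByExpr (minimum count 10), scaled by TMM and fitted by stage over 15 libraries in edgeR 4.0.16 (R 4.3.3); the common biological coefficient of variation was 0.332. Each contrast had a quasi-likelihood F test, adjusted by Benjamini-Hochberg over 22151 genes (threshold 0.05). SE is the log2 fold change divided by the root of F. Log2 CPM used a prior count of 2. TPM used the gene lengths in the table. The procedure was also run on simulated counts in which few genes changed, at P0 only, unlike the many genes called here. That run cannot show how the scaling behaves where many genes change.

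All 8 genes are named, with the most abundant gene and up to 3 largest rises and falls (P0 against E13.5) of each list, and the 3 genes most like each; some genes this rule takes are not reported here. Other named genes, such as Nefl, Olig2 and Omp, were chosen after their values were seen. The members and lists were chosen with earlier results of these data known. Alternatives were DESeq2 1.42.0, its size factors, upper-quartile scaling, other filters, a replicate block, the 6 libraries of a contrast, and leaving out libraries.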

Additional observations from a re-analysis of the deposited data

How the results depend on the processing

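The count of 6 genes changed from E13.5 to P0 was 6 with every other tool, scaling, filter and fit listed under the processing, and in all 15 fits without 1 library, and 5 without the library of each stage richest in axon genes (Foxd3 0.71, adjusted p = 0.0609). Of all genes, 31.7% passed there with no filter on low counts and 61.4% with a mean of at least 1 CPM, in either direction. The share was 59.8% in DESeq2, 48.4% with only the 6 libraries and 41.5% without the axon-rich libraries. Over the 5 stages the count of members was 3 in that last setting (40.1% of all genes). It was 5 with the replicate block (without Foxd3), 7 in DESeq2 (with Erbb3) and 5 to 6 without 1 library. From E13.5 to E14.5 the 0 became 1 (Egr2) in DESeq2 (5.13% of all genes) and with the replicate block (0.609%), and 0 to 1 without 1 library. From E14.5 to E15.5 the 1 became 2 (Erbb3 added) in DESeq2, with upper-quartile scaling and with a mean of at least 1 CPM. Those settings called 32.6%, 24.5% and 29.1% of all genes. The count was 0 with the replicate block (26.5% of all genes) and 0 without the axon-rich libraries (12.3%), and 0 to 2 without 1 library. With only the 6 libraries of that contrast, where 32.3% of all genes passed, it was 1, but Erbb3 (adjusted p = 0.0497) in place of Pmp22 (0.0596). The other steps stayed at 0 in all alternatives.

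Of single genes, Egr2 at E15.5 against E14.5 turned from -0.05 to 0.072 with upper-quartile scaling and 0.0314 with a mean of at least 1 CPM. Pmp22 at P0 against E16.5 turned from -0.03 to 0.0008 with upper-quartile scaling and 0.0054 with only the 6 libraries. Without the axon-rich libraries Erbb3 turned to -0.10 (E16.5 against E15.5) and 0.18 (P0 against E16.5) and Foxd3 to -0.0658 (P0 against E16.5). None of these passed a test, and the causes were not tested. With upper-quartile scaling the log2 fold changes of all genes at E15.5 against E14.5 had a median of 0.16 instead of 0.03. It also moved the share of rises among all called genes from 48.6% to 63.0% there and from 53.8% to 67.9% at P0 against E16.5.

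Without 1 library in turn, these log2 fold changes, none of them called, changed sign. For E15.5 against E14.5 they were Egr2 from -0.19 to 0.0881. For E16.5 against E15.5 they were Erbb3 from -0.18 to 0.15, Foxd3 from -0.0595 to 0.51, Mag from -0.10 to 0.45 and Sox10 from -0.50 to 0.21. For P0 against E16.5 they were Erbb3 from -0.27 to 0.0726, Foxd3 from -0.40 to 0.44, Mag from -0.17 to 1.01, Mbp from -0.0868 to 0.74, Pmp22 from -0.33 to 0.18, Prx from -0.0694 to 0.83 and Sox10 from -0.82 to 0.10. For E14.5 against E13.5 they were Pmp22 from -0.17 to 0.43. For P0 against E13.5 they were Sox10 from -0.62 to 0.10.

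Same-numbered libraries of different stages deviated together in some pairs only (9 of 30 with r over 0.1, range -0.303 to 0.548). The highest r, 0.548, was between replicate 3 of E13.5 and replicate 3 of E14.5. The highest r between differently numbered libraries was 0.426. These values cannot show whether the numbers mark a shared litter or day, and the main fit used no block. With the replicate block Egr2 at E14.5 had an adjusted p of 0.0419, Pmp22 at E15.5 one of 0.0542, and Foxd3 lost its call over the 5 stages. Depth was lowest for Mag, with 39 to 339 counts a library, and 3 pools a stage limit the precision of every value.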
